A study of Mus musculus with 8 samples.

Results

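Gene expression was compared between activated CD4 T cells that lack IFN-γ receptor 1 (KO) and wild-type (WT) cells, both held in db-cAMP. Db-cAMP (dibutyryl cyclic AMP) is a membrane-permeable form of the second messenger cyclic AMP. The comparison rests on the 4 arrays of the series' 8 whose titles name cAMP treatment, 2 from KO and 2 from WT cells, and runs across 12091 genes. All 8 arrays held CD4 T cells purified with magnetic beads from the spleens of 8 weeks old mice and stimulated through CD3 and CD28 for 15 h. The WT and KO cells of this comparison received db-cAMP for the final 3 h, and the other 4 arrays, 2 WT and 2 KO, received vehicle. The labels name the KO mice only as IFN-gR1-deficient and give no strain or allele. The titles, source names and genotype entries place 4 arrays in KO, whereas the free-text descriptions of those arrays say WT, and the titles were followed. Replicates are called biological in the labels, without a link to individual mice or cultures. The p-values therefore reflect the variation among these arrays alone, part of which may be technical. The question is which genes differ by receptor genotype once cAMP is raised.

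IFN-γ is the signature cytokine of type 1 helper T cells and acts back on the cells that make it. Its receptor pairs the ligand-binding chain Ifngr1 with the signalling chain Ifngr2, which carry the kinases Jak1 and Jak2. Their signal reaches GAS sites in DNA and induces transcription factors such as Irf1 that act through interferon-stimulated response elements (ISREs). Cyclic AMP activates protein kinase A and, through CREB-family factors, induces genes with CRE sites, and it is known to restrain T cell activation.

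Each value is a linear signal intensity per array. Differences are KO minus WT of log2(signal + 5.48), given with the standard error of the fit, and a gene is called when limma's Benjamini-Hochberg adjusted p is under 0.05. The sign is negative where KO cells were lower. The 2 WT arrays under db-cAMP correlated at 0.961 across genes, the 2 KO arrays at 0.977, and KO with WT arrays at 0.942 to 0.95. The T cell identity list summed to 116300 and 118800 on the WT arrays and 115800 and 113200 on the KO arrays. Control probe sets also differed by genotype: the poly-A spike controls averaged 1561 and 1853 in WT and 5294 and 4381 in KO, the Gapdh control sets 56240 and 61100 against 31630 and 31890, and 18S rRNA had a 3-prime over 5-prime signal ratio of 0.441 and 0.41 against 0.623 and 0.548. These differences had the same direction under vehicle, cannot be told apart from genotype, and their part in the gene results was not tested.

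KO and WT cells differed at 3529 of 12091 genes under db-cAMP, which is 29.2% of those tested. In KO cells 1926 genes (15.9%) were higher and 1603 (13.3%) lower, and the median over all genes was -0.01. Each list count below is to be read beside these shares. The lists were written by hand with earlier results of these data known, so their counts describe the chosen members only. The large differences were mostly losses: 85 genes were lower by 4-fold or more and 46 higher, and beyond 8-fold there were 25 lower genes against 3 higher ones, which were Erdr1, Hivep3 and Ppargc1b. Most calls were small, since 839 lower and 872 higher genes differed by less than 1.5-fold. The KO and WT arrays did not overlap at 64.1% of genes, with KO below WT at 32% and above it at 32.1%, so a lack of overlap in a gene is by itself common here. With every array set to an equal 75th percentile, the median over all genes moved to -0.13 and the called genes split into 38% higher and 62% lower, against 54.6% and 45.4% as deposited. Small differences of either sign are therefore relative to the scaling.

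**Figure D1:**
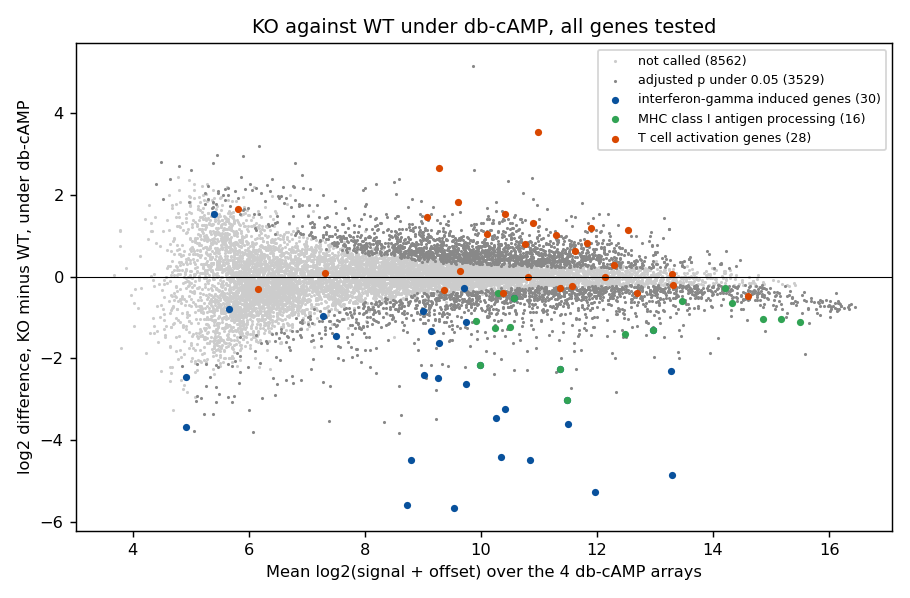
Each point is a gene tested, with its mean log2 level over the 4 db-cAMP arrays on the horizontal axis and the KO minus WT log2 difference on the vertical axis; colours mark the interferon-γ induced, antigen-processing and T cell activation lists. The interferon-γ induced genes reach -5.67 in KO cells, and T cell activation genes lie mostly above 0, up to 3.53.

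The receptor and its signalling chain were lower in KO cells at most of the called steps. Of 14 genes of the receptor and signalling list 7 were lower, 1 was higher and 6 were not called, with a list median of -0.57. Ifngr1, the gene named in the KO label, gave 7319 and 8201 on the WT arrays and 1056 and 1272 on the KO arrays. The KO arrays were the low ones and did not reach the WT range (-2.74 ± 0.12, adjusted p = 2.97e-09). The sources used here do not say where the Ifngr1 probes lie relative to the disrupted sequence. The signal left in KO cells therefore checks neither the label nor the loss of the receptor. Ifngr2, the second receptor chain, gave 984 and 1041 on the WT arrays and 619 and 583 on the KO arrays (-0.75 ± 0.15, adjusted p = 0.00154). The call on Ifngr2 was lost with the mean of its probe sets (-0.47), with adjusted p = 0.101.

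The Janus kinase of the Ifngr2 chain, Jak2, gave 8296 and 7788 on the WT arrays and 3828 and 4179 on the KO arrays. Both WT arrays were above both KO arrays (-1.01 ± 0.08, adjusted p = 7.63e-07). Jak1, which pairs with Ifngr1, was not called at 0.23 ± 0.10 (adjusted p = 0.101). Another Jak1 probe set was higher in KO cells, with 424 and 511 on the WT arrays and 1569 and 1539 on the KO arrays. It differed by 1.73 (adjusted p = 4.31e-05 in limma over every probe set). A further Jak1 probe set was not called at -0.20. Irf9, the DNA-binding partner of STAT complexes, was lower by a larger step (-1.50 ± 0.13, adjusted p = 1.78e-06). The feedback inhibitors were lower too, and Socs3 gave 2292 and 2263 on the WT arrays and 583 and 654 on the KO arrays (-1.87 ± 0.15, adjusted p = 1.1e-06). Socs1 gave 737 and 638 on the WT arrays and 391 and 366 on the KO arrays (-0.85 ± 0.18, adjusted p = 0.00287). At the probe sets used, Stat3 was lower by the least of the 7 (-0.39 ± 0.10, adjusted p = 0.0123). The call on Stat3 was lost without the intensity trend (-0.39), without WT db-cAMP replicate 2 (-0.35) and without KO db-cAMP replicate 1 (-0.36), with adjusted p from 0.0795 to 0.106. Its value was -0.69 with the mean of its probe sets. Another Stat3 probe set gave 8815 and 8260 on the WT arrays and 3184 and 3274 on the KO arrays. It differed by -1.40 (adjusted p = 4.9e-07 in limma over every probe set), so the rank of Stat3 depends on the probe set. Dimmer Stat3 probe sets, at -0.39 and -0.57, were not called. The ligand itself, Ifng, was the 1 member called higher in KO cells at the probe sets used. It gave 521 and 504 on the WT arrays and 1015 and 1024 on the KO arrays, so the KO arrays lay above the WT arrays (0.98 ± 0.13, adjusted p = 5.99e-05).

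**Figure D2:**
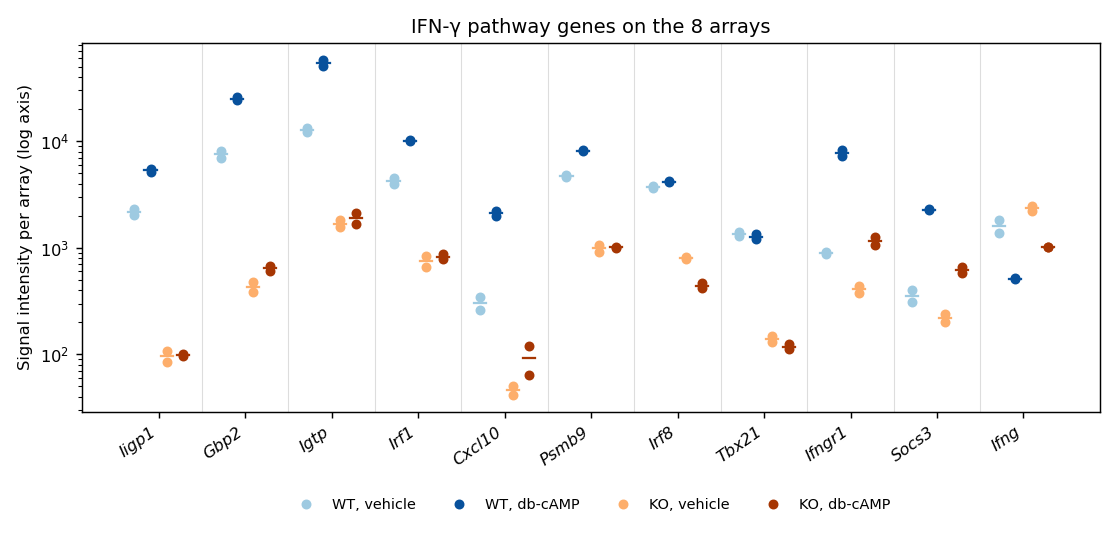
Signal of 11 interferon-γ pathway genes on each of the 8 arrays, on a log axis, with a bar at the mean of the 2 arrays of a group. In WT cells Iigp1 lies at 5445 and 5176 under db-cAMP and in KO cells near 100, while Ifng is higher in KO cells.

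The genes that IFN-γ induces formed the deepest loss. Of 30 tested genes of the interferon-γ induced list, 26 were lower in KO cells, 0 were higher in limma by adjusted or unadjusted p under 0.05, and 4 were not called (Gm4951, Upp1, Ifi30 and Ciita). The list median was -2.43, against -0.01 over all genes. The largest losses were GTPases that attack the vacuoles of intracellular pathogens. Iigp1, an immunity-related GTPase, gave 5445 and 5176 on the WT arrays and 96.7 and 101 on the KO arrays. That is a 50.9-fold gap between groups whose own arrays differed by little (-5.67 ± 0.14, adjusted p = 2.69e-11).

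All 5 guanylate-binding proteins tested were lower, with a median of -3.82, as were 6 of 7 immunity-related GTPases, with a median of -4.40. Gbp2 gave 24290 and 25750 on the WT arrays and 606 and 678 on the KO arrays (-5.27 ± 0.11, adjusted p = 8.03e-12). Gbp6 gave 3065 and 2760 on the WT arrays and 58.4 and 52.9 on the KO arrays (-5.58 ± 0.19, adjusted p = 2.24e-10). The other 3, Gbp8, Gbp7 and Gbp3, differed by -3.82 ± 0.19, -3.46 ± 0.11 and -2.63 ± 0.16. Among the regulatory GTPases that keep the effector GTPases off the cell's own membranes, Igtp gave 50480 and 57600 on the WT arrays and 1662 and 2116 on the KO arrays (-4.84 ± 0.11, adjusted p = 1.19e-11). Irgm1 gave 9335 and 8118 on the WT arrays and 431 and 336 on the KO arrays (-4.50 ± 0.14, adjusted p = 8.39e-11). Irgm2 gave 6160 and 5844 on the WT arrays and 348 and 223 on the KO arrays (-4.40 ± 0.17, adjusted p = 1.17e-09). Every WT array was above every KO array for these 5 genes. Ifi47 kept the highest KO signal of the family, with 21770 and 22460 on the WT arrays and 4246 and 4646 on the KO arrays, and its difference was smaller at -2.31 ± 0.07 (adjusted p = 8.39e-11). The immunity-related GTPase not called, Gm4951, was dim at 35.6 and 117 on the WT arrays and 4.15 and 12.1 on the KO arrays (-2.45 ± 0.99, adjusted p = 0.0829).

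Promoter sequence was searched for the elements through which IFN-γ signalling is known to act. The window is 250 bases before each RefSeq start site, build GRCm38.p6, read 5′ to 3′ on the strand of the gene. A GAS-type element was TTCNNNGAA and an ISRE core was GAAA, 2 free bases and GAAA again, searched on both strands, and capitals mark the matches. The first 4 are the largest losses of the interferon-γ induced list that have a window; Gbp2 lies at chr3:142620413-142620662 (plus strand), Igtp at chr11:58199306-58199555 (plus), Irgm1 at chr11:48871421-48871670 (minus) and Cxcl10 at chr5:92348890-92349139 (minus). Each of the 4 windows holds an ISRE core, and that of Igtp also a GAS-type match.
Gbp2: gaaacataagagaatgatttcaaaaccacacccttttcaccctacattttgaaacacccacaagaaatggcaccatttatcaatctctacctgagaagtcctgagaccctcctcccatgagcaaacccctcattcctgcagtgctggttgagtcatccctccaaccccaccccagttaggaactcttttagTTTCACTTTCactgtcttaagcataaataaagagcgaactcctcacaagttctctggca
Igtp: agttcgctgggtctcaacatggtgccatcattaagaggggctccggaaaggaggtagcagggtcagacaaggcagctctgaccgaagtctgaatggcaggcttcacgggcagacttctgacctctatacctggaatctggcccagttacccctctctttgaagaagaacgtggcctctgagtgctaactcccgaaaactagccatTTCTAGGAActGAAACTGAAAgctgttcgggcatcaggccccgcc
Irgm1: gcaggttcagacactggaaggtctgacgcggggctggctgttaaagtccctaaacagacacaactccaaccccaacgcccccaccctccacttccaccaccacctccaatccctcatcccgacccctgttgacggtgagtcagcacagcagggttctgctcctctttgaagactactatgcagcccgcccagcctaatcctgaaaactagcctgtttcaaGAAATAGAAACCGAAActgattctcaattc
Cxcl10: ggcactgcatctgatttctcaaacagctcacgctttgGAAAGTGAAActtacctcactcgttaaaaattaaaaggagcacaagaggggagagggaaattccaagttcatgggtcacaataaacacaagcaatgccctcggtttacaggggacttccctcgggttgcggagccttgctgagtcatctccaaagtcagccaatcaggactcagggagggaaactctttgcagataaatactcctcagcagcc

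The matches lie close to the start site in the GTPase genes and farther out in the chemokine gene. The ISRE core of Gbp2 spans bases 59 to 50 before the start and, in the antisense orientation, reads TTTCACTTTC. In Igtp the GAS-type match TTCTAGGAA spans bases 45 to 37 and the ISRE core bases 34 to 25. Irgm1 has 2 ISRE cores that overlap by 4 bases, from base 30 to base 15. The Cxcl10 match spans bases 213 to 204.

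A further 3 windows, cut to 120 bases and chosen after their matches were seen, show how the elements combine: Irgm2 at chr11:58214857-58214976 (plus strand), Gbp7 at chr3:142530216-142530335 (plus) and Irf1 at chr11:53769894-53770013 (plus). Irgm2 repeats the GAS-type and ISRE pair of Igtp, Gbp7 has 2 GAS-type matches and an antisense ISRE core, and Irf1 has a GAS-type match alone.
Irgm2: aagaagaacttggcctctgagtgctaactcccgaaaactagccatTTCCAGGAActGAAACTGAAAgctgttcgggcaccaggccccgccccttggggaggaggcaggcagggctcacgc
Gbp7: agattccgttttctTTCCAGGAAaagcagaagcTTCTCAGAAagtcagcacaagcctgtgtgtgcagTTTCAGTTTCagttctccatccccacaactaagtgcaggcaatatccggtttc
Irf1: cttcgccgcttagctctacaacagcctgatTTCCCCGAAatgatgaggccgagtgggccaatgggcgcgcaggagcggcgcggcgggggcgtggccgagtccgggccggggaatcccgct

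Over all genes lower by 4-fold or more with a window, 15 of 63 (23.8%) held an ISRE core, against 309 of 9824 genes tested (3.15%) and 2.98% of all 32851 windows. At 2-fold or more the ISRE share was 28 of 257 (10.9%) among lower genes and 4 of 258 (1.55%) among higher ones. In the interferon-γ induced list 8 of 23 genes with a window held an ISRE core and 7 of 23 a GAS-type match (30.4%). Of the genes tested that have a window 7.08% held a GAS-type match. A gene counts where any of its windows holds a match. Among all 1316 genes called lower with a window the shares were 4.79% for the ISRE core and 6.91% for the GAS-type match. These counts describe letters in a short window and do not show binding.

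The transcription factors that carry the IFN-γ response onward were lower too. Of 10 members of the interferon regulatory factor family and its partners 4 were lower, Irf1, Irf8, Irf9 and Irf2, and 1 was higher, Irf5. Irf1, a direct target of the receptor, gave 10180 and 10010 on the WT arrays and 869 and 787 on the KO arrays (-3.60 ± 0.11, adjusted p = 9.05e-11). Irf8 gave 4113 and 4231 on the WT arrays and 415 and 467 on the KO arrays (-3.23 ± 0.09, adjusted p = 7.07e-11). The WT arrays were the high ones for both genes. Irf2, which binds the same element, differed by -0.57 ± 0.10 (adjusted p = 0.000559). Irf5 was dim, with 114 and 65.9 on the WT arrays and 229 and 188 on the KO arrays (1.21 ± 0.34, adjusted p = 0.0147). The call on Irf5 was lost under 4 of 18 alternatives, among them without WT db-cAMP replicate 2 (0.84) and without KO db-cAMP replicate 1 (1.07), with adjusted p from 0.0525 to 0.121.

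Among secreted and surface products of the list, the CXCR3 ligand Cxcl10 gave 2215 and 1998 on the WT arrays and 64.6 and 121 on the KO arrays (-4.49 ± 0.28, adjusted p = 1e-07). Its relative Cxcl9 was dim throughout, with 122 and 86.9 on the WT arrays and 1.91 and 4.18 on the KO arrays (-3.68 ± 0.88, adjusted p = 0.00626). The call on Cxcl9 was lost without WT db-cAMP replicate 1 (-3.45), with adjusted p = 0.0569. Its value was -2.37 with an offset of the 25th percentile. The inhibitory ligand Cd274 (PD-L1) gave 1223 and 1276 on the WT arrays and 595 and 555 on the KO arrays, a clear separation of smaller size (-1.11 ± 0.10, adjusted p = 2.19e-06). Parp9, which acts with Dtx3l as an ADP-ribosylation and ubiquitin ligase pair in interferon signalling, differed by -2.49 ± 0.18, and Dtx3l by -1.62 ± 0.14. The adhesion molecule Icam1 differed by -1.33 ± 0.13 (adjusted p = 4.64e-06). Ciita, the class II transactivator, was dim and not called at 1.54 ± 0.76 (adjusted p = 0.153). Outside the lists, the channel protein Calhm6 was among the 15 largest losses, with 1145 and 1065 on the WT arrays and 65.3 and 120.1 on the KO arrays (-3.56 ± 0.31, adjusted p = 2.03e-06).

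Antigen processing for MHC class I was lower as a whole list: all 16 genes tested were lower in KO cells, with a median of -1.10. The immunoproteasome subunit Psmb9 gave 8021 and 8266 on the WT arrays and 1001 and 1018 on the KO arrays, the largest difference of the list (-3.01 ± 0.09, adjusted p = 7.07e-11). Psmb8, another subunit, gave 13430 and 11770 on the WT arrays and 5054 and 5061 on the KO arrays (-1.31 ± 0.10, adjusted p = 4.86e-07). Tapbp, the tapasin chaperone of peptide loading, gave 9074 and 9467 on the WT arrays and 3408 and 3593 on the KO arrays (-1.40 ± 0.09, adjusted p = 8.49e-08). For these 3 genes both KO arrays were well below both WT arrays.

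Nlrc5, the transactivator of class I genes, gave 2168 and 2090 on the WT arrays and 448 and 494 on the KO arrays (-2.17 ± 0.12, adjusted p = 4.04e-08). Of the peptide transporter, Tap2 differed by -1.22 ± 0.11 and Tap1 by -2.27 ± 0.11. The call on Tap1 was lost with the mean of its probe sets (-0.92), with adjusted p = 0.193. The class I heavy chain H2-K1 and the light chain B2m remained bright in KO cells. H2-K1 gave 50020 and 56350 on the WT arrays and 26080 and 25610 on the KO arrays (-1.04 ± 0.08) and B2m gave 60780 and 76260 on the WT arrays and 33590 and 29700 on the KO arrays (-1.11 ± 0.10). Their differences shrank to -0.52 and -0.49 after quantile normalization. They sit at the top of the signal range, as do the Gapdh control sets. The smallest difference of the list was -0.29 ± 0.07 for Calr, a general chaperone of the endoplasmic reticulum. The call on Calr was lost after quantile normalization (-0.01), without the intensity trend (-0.29) and without KO db-cAMP replicate 1 (-0.27), with adjusted p from 0.0558 to 0.967.

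Genes known chiefly as type I interferon targets were lower in part. Of 20 tested 7 were lower and 13 were not called, 0 were higher in limma by adjusted or unadjusted p under 0.05, and the median was -0.88. Zbp1, a sensor of Z-form nucleic acid, gave 2022 and 1973 on the WT arrays and 207 and 146 on the KO arrays (-3.48 ± 0.19, adjusted p = 3.03e-08). Usp18, a protease that dampens type I receptor signalling, gave 1679 and 1461 on the WT arrays and 176 and 284 on the KO arrays (-2.78 ± 0.28, adjusted p = 7.15e-06). Ifit1, which binds foreign RNA, gave 601 and 530.3 on the WT arrays and 42.9 and 45.0 on the KO arrays (-3.53 ± 0.58, adjusted p = 0.000443). The KO arrays were the low ones for all 3. Rtp4 was the fourth in size and dimmer, at 208 and 162 on the WT arrays and 26.5 and 61.7 on the KO arrays (-2.03 ± 0.48, adjusted p = 0.00571). The call on Rtp4 was lost without KO db-cAMP replicate 1 (-1.49), with adjusted p = 0.0625. The 13 not called ranged from -1.45 for Oas3 to 0.19 for Ddx58.

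The type 1 helper program divided. Of 23 Th1 genes 10 were lower in KO cells, 6 were higher and 7 were not called. Tbx21, which encodes the lineage-defining factor T-bet, gave 1343 and 1201 on the WT arrays and 112 and 124 on the KO arrays (-3.37 ± 0.16, adjusted p = 6.99e-09). Stat4, which relays IL-12, gave 8276 and 8666 on the WT arrays and 4024 and 4277 on the KO arrays (-1.03 ± 0.08, adjusted p = 5.92e-07). Fasl, a death ligand, gave 5346 and 5354 on the WT arrays and 1996 and 2069 on the KO arrays (-1.39 ± 0.08, adjusted p = 8.49e-08). The WT arrays were high and the KO arrays low for all 3. Txk, a kinase of the Tec family, differed by -1.53 ± 0.21, Eomes, a factor related to T-bet, by -1.12 ± 0.18 and the cytotoxic protease Gzmb by -1.11 ± 0.12. The IL-12 receptor chain Il12rb2 was dim, with 186 and 227 on the WT arrays and 6.20 and 56.8 on the KO arrays (-2.97 ± 0.90, adjusted p = 0.0237). It was above the array median only on the WT arrays under db-cAMP. It thus passed the filter only through the group where it is high, and its place among the 10 lower genes is no independent support. The call on Il12rb2 was lost under 5 of 18 alternatives, among them without WT db-cAMP replicate 1 (-3.11), without WT db-cAMP replicate 2 (-2.82) and without KO db-cAMP replicate 1 (-1.76), with adjusted p from 0.055 to 0.203. The other chain, Il12rb1, was not called at -0.10 ± 0.23 (adjusted p = 0.801).

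The 6 Th1 genes that were higher in KO cells encode secreted proteins. Il2, the T cell growth factor, gave 126 and 209.6 on the WT arrays and 864 and 872 on the KO arrays, and both KO arrays were far above both WT arrays (2.38 ± 0.18, adjusted p = 7.41e-07). The chemokines Ccl4 and Ccl3 gave 496 and 459 on the WT arrays and 886 and 1132 on the KO arrays, and 266 and 368 on the WT arrays and 594 and 597 on the KO arrays, in that order. Their differences were 1.06 ± 0.12 and 0.92 ± 0.14. Xcl1 and Lta, a chemokine and lymphotoxin, differed by 0.79 ± 0.08 and 0.70 ± 0.13, and Ifng is described above. Across the 18 chemokine genes 5 were higher, these 3 with Ccl1 and Ccl20, and 4 were lower, Cxcl10, Cxcl9, Ccl5 and Cklf. Ccl1 gave 1199 and 1343 on the WT arrays and 3992 and 4045 on the KO arrays (1.66 ± 0.09, adjusted p = 2.25e-08). Ccl20 was dim and gave 14.6 and 61.6 on the WT arrays and 187 and 113 on the KO arrays (2.04 ± 0.48, adjusted p = 0.00535). The call on Ccl20 was lost without the intensity trend (2.04) and without KO db-cAMP replicate 1 (1.69), with adjusted p from 0.065 to 0.0685. Its value was 1.17 without WT db-cAMP replicate 1. Ccl5 differed by -0.80 ± 0.24 (adjusted p = 0.0247) and Cklf by -0.74 ± 0.09 (adjusted p = 2.68e-05). The call on Ccl5 was lost without the intensity trend (-0.80), without WT db-cAMP replicate 1 (-0.67) and without KO db-cAMP replicate 2 (-0.64), with adjusted p from 0.112 to 0.177. The call on Cklf was lost with the mean of its probe sets (-0.39), with adjusted p = 0.19.

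The members chosen for a list of cAMP and CREB targets were lower more often than higher. Because earlier results of these data were known when they were chosen, the counts do not test cAMP targets as a class. Of 35 tested 16 were lower in KO cells, 4 were higher and 15 were not called, with a median of -0.31. Ramp3, which modifies receptors of the calcitonin family, gave 29410 and 30890 on the WT arrays and 8224 and 8314 on the KO arrays (-1.87 ± 0.14, adjusted p = 5.63e-07). Crem, the cAMP-responsive element modulator, gave 23700 and 17500 on the WT arrays and 5544 and 5764 on the KO arrays (-1.85 ± 0.14, adjusted p = 4.86e-07). Rgs2, a brake on G protein signalling, gave 9251 and 9306 on the WT arrays and 3317 and 3331 on the KO arrays (-1.48 ± 0.08, adjusted p = 1.77e-08). The difference of Rgs2 was -0.72 with the mean of its probe sets. The KO arrays were lower in all 3 genes, by 3.64-fold for Ramp3 and 3.60-fold for Crem. Vps37b, a subunit of the ESCRT-I sorting complex, differed by -1.31 ± 0.11 and Tsc22d3, a leucine-zipper protein also induced by glucocorticoids, by -1.27 ± 0.20. Pde4d, which degrades cAMP, gave 3955 and 3383 on the WT arrays and 1810 and 1988 on the KO arrays (-0.95 ± 0.14, adjusted p = 0.000198). The call on Pde4d was lost with the mean of its probe sets (0.07), with adjusted p = 0.932.

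The same genes stood far above vehicle in KO cells too. Db-cAMP minus vehicle was 4.35 in KO cells and 7.12 in WT cells for Ramp3, 2.52 and 3.98 for Crem, and 2.71 and 4.04 for Vps37b. These within-genotype differences share the db-cAMP arrays with the comparison of genotypes and are set beside it as values. In the list as a whole, the median difference from vehicle was 0.71 in KO and 1.23 in WT cells.

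The 4 genes of the cAMP list that were higher in KO cells were Ppargc1b, Per2, Id3 and Nr4a1. Not all of them rose with db-cAMP. In WT cells db-cAMP minus vehicle was -3.36 for Ppargc1b, -2.85 for Per2 and 0.07 for Nr4a1. In KO cells it was -0.44, -0.87 and 0.66. Neither fall was called there in limma (adjusted p = 0.469 for Ppargc1b and 0.45 for Per2). Limma's test of KO change against WT change passed for Ppargc1b (2.91, adjusted p = 0.000663). For Per2 it did not pass (1.98, adjusted p = 0.147). Ppargc1b, a coactivator of mitochondrial genes, gave 20.5 and 16.6 on the WT arrays and 184 and 249 on the KO arrays (3.20 ± 0.30, adjusted p = 3.9e-06). Id3, an inhibitor of E proteins, gave 422 and 463 on the WT arrays and 1118 and 1032 on the KO arrays (1.27 ± 0.12, adjusted p = 3.22e-06). Nr4a1, an orphan nuclear receptor also induced by antigen receptor signals, gave 4483 and 3591 on the WT arrays and 8723 and 8904 on the KO arrays (1.13 ± 0.11, adjusted p = 5.57e-06). In each of these 3 the KO arrays were the high ones. The clock gene Per2 was dim at 24.5 and 8.88 on the WT arrays and 43.6 and 95.8 on the KO arrays (1.77 ± 0.57, adjusted p = 0.0316). The call on Per2 was lost under 7 of 18 alternatives, among them without WT db-cAMP replicate 2 (1.24), without KO vehicle replicate 1 (1.77) and without KO db-cAMP replicate 2 (1.24), with adjusted p from 0.0532 to 0.675.

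Genes of quiescence and lymphoid homing were lower in KO cells more often than higher, with 14 of 24 lower, 4 higher and 6 not called. Klf4, a factor that restrains proliferation, gave 1998 and 2070 on the WT arrays and 559 and 597 on the KO arrays (-1.81 ± 0.16, adjusted p = 2.37e-06). The chemokine receptor Cxcr4, also on the cAMP list, gave 3956 and 3600 on the WT arrays and 1432 and 1561 on the KO arrays (-1.33 ± 0.12, adjusted p = 2.73e-06). Ccr7, which guides T cells into lymph nodes, gave 71880 and 80720 on the WT arrays and 35130 and 34640 on the KO arrays (-1.13 ± 0.08, adjusted p = 1.79e-07). The difference of Ccr7 was -0.47 after quantile normalization. The WT arrays were above the KO arrays in all 3. Klf2, a factor that maintains homing receptors, differed by -1.03 ± 0.10, Klf6 by -1.14 ± 0.09, the egress receptor S1pr1 by -0.74 ± 0.15 and the cyclin-dependent kinase inhibitor Cdkn1b by -1.09 ± 0.13. The 4 higher genes were Foxp1, which maintains naive T cells (1.81 ± 0.09), Bach2, a repressor of effector genes (0.83 ± 0.08), Slfn2 (0.76 ± 0.08) and Lef1 (0.47 ± 0.10). The call on Lef1 was lost without the intensity trend (0.47), with adjusted p = 0.0563.

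**Figure D3:**
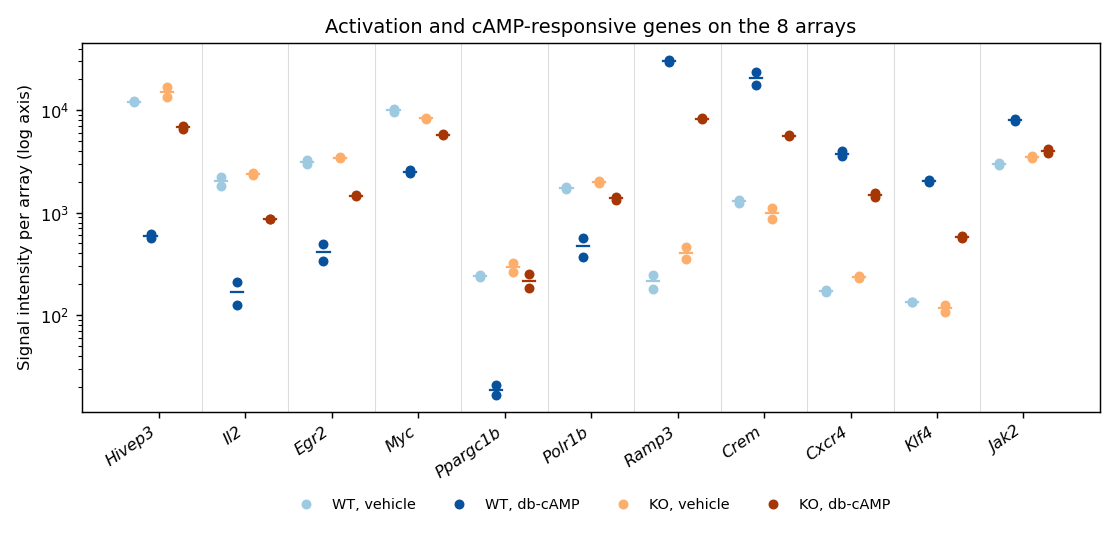
Signal of 11 activation and cAMP-responsive genes on each of the 8 arrays, on a log axis, with a bar at the mean of each group. Hivep3, Il2, Egr2 and Myc are highest under vehicle and lie higher in KO than in WT cells under db-cAMP; Ramp3, Crem, Cxcr4 and Klf4 are highest in WT cells under db-cAMP.

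T cell activation genes were mostly higher in KO cells, with 15 of 28 higher, 3 lower and 10 not called, and a median of 0.45. Hivep3, a large zinc-finger protein, gave 615 and 561 on the WT arrays and 6600 and 7095 on the KO arrays (3.53 ± 0.10, adjusted p = 6.71e-11). The difference of Hivep3 was 1.31 with the mean of its probe sets. Egr2, an early factor downstream of calcium and NFAT, gave 339 and 495 on the WT arrays and 1445 and 1485 on the KO arrays (1.83 ± 0.14, adjusted p = 5.92e-07). Its relatives Egr3 and Egr1 differed by 1.45 ± 0.10 and 1.31 ± 0.12. Myc, the regulator of growth metabolism, gave 2448 and 2587 on the WT arrays and 5798 and 5756 on the KO arrays (1.20 ± 0.07, adjusted p = 8.05e-08). The WT arrays were the low ones in each.

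Slc7a5, the large neutral amino acid transporter, gave 933 and 679 on the WT arrays and 1982 and 2726 on the KO arrays (1.54 ± 0.15, adjusted p = 5.44e-06). Tnfsf8, the CD30 ligand, gave 277 and 209.6 on the WT arrays and 1585 and 1534 on the KO arrays (2.67 ± 0.13, adjusted p = 1.44e-08). Both genes had higher signals on both KO arrays. The transferrin receptor Tfrc, the early activation marker Cd69 and Nfatc1 differed by 0.82 ± 0.07, 0.62 ± 0.07 and 1.04 ± 0.09. The difference of Nfatc1 was 0.67 with the mean of its probe sets. The 3 lower genes belong to NF-κB signalling or its targets and differed by little, with -0.47 ± 0.07 for the inhibitor Nfkbia, -0.40 ± 0.12 for the subunit Rel and -0.39 ± 0.08 for the costimulatory receptor Tnfrsf9. The call on Rel was lost under 4 of 18 alternatives, among them without WT db-cAMP replicate 1 (-0.32), without KO db-cAMP replicate 1 (-0.41) and without KO db-cAMP replicate 2 (-0.38), with adjusted p from 0.0899 to 0.143. The call on Nfkbia was lost after quantile normalization (-0.07) and with the mean of its probe sets (-0.12), with adjusted p from 0.188 to 0.419. The call on Tnfrsf9 was lost with the mean of its probe sets (-0.30), with adjusted p = 0.384.

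Ribosome biogenesis genes were higher in KO cells for 23 of 31, with a median of 0.50, 3 lower and 5 not called. Polr1b, a subunit of RNA polymerase I, gave 568 and 371 on the WT arrays and 1324 and 1433 on the KO arrays (1.57 ± 0.15, adjusted p = 4.95e-06). Grwd1, a factor of ribosome assembly, gave 1098 and 913 on the WT arrays and 2656 and 2701 on the KO arrays (1.42 ± 0.09, adjusted p = 1.69e-07). Rrs1, which acts in assembly of the large subunit, gave 3702 and 3086 on the WT arrays and 7165 and 9147 on the KO arrays (1.26 ± 0.11, adjusted p = 1.97e-06). The KO arrays were above the WT arrays in all 3, and the stem-cell nucleolar factor Gnl3 differed by 1.26 ± 0.08. The 3 lower members were the bright nucleolar proteins Npm1, Ncl and Fbl, at -0.72 ± 0.09, -0.47 ± 0.08 and -0.40 ± 0.08. The call on Npm1 was lost after quantile normalization (-0.02), with adjusted p = 0.874. The call on Ncl was lost after quantile normalization (0.06) and with the mean of its probe sets (-0.04), with adjusted p from 0.379 to 0.83. The call on Fbl was lost after quantile normalization (0.01) and without the intensity trend (-0.40), with adjusted p from 0.0662 to 0.945. The sign thus turned with quantile normalization for Ncl and Fbl.

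Metabolic lists had members called in both directions. Of 18 glycolysis genes 10 were lower and 2 higher. The lower count was 6 without KO db-cAMP replicate 2 and 6 after quantile normalization or without the intensity trend. The shares over all genes were 13.3% lower and 15.9% higher, and the 2 of 18 higher are not above the latter. The 2 higher genes were Hk2, the inducible hexokinase, with 413 and 333 on the WT arrays and 902 and 1062 on the KO arrays (1.39 ± 0.13, adjusted p = 3.83e-06), and Pdk1, a pyruvate dehydrogenase kinase (0.99 ± 0.09, adjusted p = 3.22e-06). The lower ones included the enzyme Tpi1 at -0.98 ± 0.07 and the hypoxia factor Hif1a at -1.07 ± 0.08. The call on Hif1a was lost with the mean of its probe sets (-0.57), with adjusted p = 0.0677. Its value was -0.69 after quantile normalization. Of 20 cholesterol synthesis genes 10 were higher, 3 lower and 7 not called, with a median of 0.35. The 3 of 20 lower are near the share of all genes. Sqle, squalene epoxidase, gave 713 and 633 on the WT arrays and 1810 and 1794 on the KO arrays (1.42 ± 0.12, adjusted p = 1.59e-06), and Lss, the next enzyme of the pathway, gave 211 and 281 on the WT arrays and 512 and 474 on the KO arrays (adjusted p = 0.000536). The 3 lower were Pmvk (-0.67 ± 0.13), Fdps (-0.47 ± 0.10) and Ebp (-0.36 ± 0.10). The call on Fdps was lost without the intensity trend (-0.47) and with the mean of its probe sets (-0.44), with adjusted p from 0.0576 to 0.358. The call on Ebp was lost without the intensity trend (-0.36), without WT db-cAMP replicate 1 (-0.31) and without KO db-cAMP replicate 2 (-0.25), with adjusted p from 0.0798 to 0.163.

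Among 33 cell cycle genes 13 were lower in KO cells and 3 higher. Cdk1, the mitotic kinase, gave 304 and 469.9 on the WT arrays and 128 and 197 on the KO arrays (-1.22 ± 0.25, adjusted p = 0.00243). Pcna, the sliding clamp of replication, differed by -0.75 ± 0.07 and the cyclin Ccna2 by -1.05 ± 0.22. The 3 higher were Ccnd2 (0.21 ± 0.07), Mcm3 (0.42 ± 0.07) and Cdk2 (0.46 ± 0.09). The call on Cdk2 was lost with the mean of its probe sets (-0.08), with adjusted p = 0.897. The call on Ccnd2 was lost under 6 of 18 alternatives, among them without WT db-cAMP replicate 1 (0.18), without KO db-cAMP replicate 1 (0.20) and without KO db-cAMP replicate 2 (0.22), with adjusted p from 0.0624 to 0.392. Its value was 0.52 after quantile normalization and 0.71 with the mean of its probe sets. The call on Mcm3 was lost with the mean of its probe sets (0.22), with adjusted p = 0.114. Of 17 apoptosis genes 5 were lower, Fasl, Mcl1, Pmaip1, Casp8 and Birc3, and 3 were higher, Bcl2l11, Bid and Bcl2l1. Over all genes tested 13.3% were lower and 15.9% higher, and the 3 of 17 higher are near that share. The call on Birc3 was lost with the mean of its probe sets (0.08), with adjusted p = 0.879. The call on Pmaip1 was lost without the intensity trend (-0.57), without WT db-cAMP replicate 2 (-0.39) and without KO db-cAMP replicate 2 (-0.39), with adjusted p from 0.0768 to 0.239. The call on Bid was lost with the mean of its probe sets (0.33), with adjusted p = 0.206. The call on Bcl2l1 was lost under 4 of 18 alternatives, among them without WT db-cAMP replicate 1 (0.42) and without KO db-cAMP replicate 2 (0.57), with adjusted p from 0.0921 to 0.243. Bcl2l11, the death-promoting protein Bim, gave 2557 and 2588 on the WT arrays and 5260 and 5970 on the KO arrays (1.12 ± 0.09, adjusted p = 6.19e-07), and the survival factor Mcl1 differed by -0.69 ± 0.09. In the unfolded protein and ATF4 list 5 of 22 were lower, Edem1, Phgdh, Xbp1, Hsp90b1 and Ddit4, and 3 were higher, Dnajb9, Herpud1 and Shmt2. The 3 of 22 higher are also near the share of all genes. The call on Hsp90b1 was lost after quantile normalization (-0.06), without the intensity trend (-0.32) and with the mean of its probe sets (0.38), with adjusted p from 0.00514 to 0.5. With the mean of its probe sets Hsp90b1 was called higher instead. The call on Phgdh was lost after quantile normalization (-0.15) and with the mean of its probe sets (-0.18), with adjusted p from 0.0581 to 0.0651. The call on Xbp1 was lost after quantile normalization (-0.12), without the intensity trend (-0.34) and without KO db-cAMP replicate 2 (-0.31), with adjusted p from 0.0636 to 0.286. The call on Ddit4 was lost without the intensity trend (-0.31), without WT db-cAMP replicate 1 (-0.25) and without KO db-cAMP replicate 1 (-0.18), with adjusted p from 0.124 to 0.28. The call on Dnajb9 was lost under 4 of 18 alternatives, among them without WT db-cAMP replicate 2 (0.34) and without KO db-cAMP replicate 1 (0.34), with adjusted p from 0.0582 to 0.102. The call on Herpud1 was lost under 14 of 18 alternatives, among them without WT vehicle replicate 1 (0.45), without WT vehicle replicate 2 (0.45), without WT db-cAMP replicate 2 (0.14), without KO vehicle replicate 1 (0.45), without KO vehicle replicate 2 (0.45), without KO db-cAMP replicate 1 (0.52) and without KO db-cAMP replicate 2 (0.37), with adjusted p from 0.0517 to 0.485. Its value was 0.75 without WT db-cAMP replicate 1. The call on Shmt2 was lost without the intensity trend (0.53) and with the mean of its probe sets (0.34), with adjusted p from 0.0903 to 0.124. Its value was 0.28 without WT db-cAMP replicate 2. At an equal 75th percentile 7 of the list were lower and 1 higher. Edem1, which directs misfolded proteins to degradation, gave 7826 and 7945 on the WT arrays and 3102 and 3213 on the KO arrays (-1.32 ± 0.08, adjusted p = 7.45e-08).

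Cytokine receptors were lower for 8 of 24, and the 4 higher were Il6ra (1.16 ± 0.15), Tgfbr1 (0.94 ± 0.09), Il2ra (0.81 ± 0.12) and Il6st (0.66 ± 0.11). The 8 lower include Il12rb2, which passed the filter only through the WT arrays under db-cAMP. Over all genes tested 13.3% were lower and 15.9% higher, so the higher count is near the share of all genes. The call on Tgfbr1 was lost with the mean of its probe sets (0.15), with adjusted p = 0.767. The difference of Il2ra was 0.40 with the mean of its probe sets. In the JAK-STAT feedback and STAT5 target list 6 of 26 were lower and 6 higher. The largest loss there was Osm, the cytokine oncostatin M, with 1156 and 968 on the WT arrays and 198 and 268 on the KO arrays (-2.17 ± 0.20, adjusted p = 3.21e-06), and the largest gain the kinase Pim3 at 0.79 ± 0.09. In a list of 16 chemokine and lymphocyte egress receptors 5 were lower (Ccrl2, Ccr1, Cxcr4, Ccr7 and S1pr1) and 0 higher in limma, or 2 at an unadjusted p under 0.05. Ccrl2, a chemerin-binding receptor, gave 235 and 235 on the WT arrays and 34.1 and 38.0 on the KO arrays (-2.54 ± 0.52, adjusted p = 0.00225). The call on Ccr1 was lost with the mean of its probe sets (-1.24), without WT db-cAMP replicate 2 (-1.35) and without KO db-cAMP replicate 2 (-1.51), with adjusted p from 0.139 to 0.181. In the Th2, Th17 and regulatory list 6 of 20 were higher and 2 lower, Tgfb1 and Il10, and the higher count was 3 without KO db-cAMP replicate 2. The call on Tgfb1 was lost with the mean of its probe sets (-0.44), with adjusted p = 0.187. The call on Il10 was lost under 4 of 18 alternatives, among them without WT db-cAMP replicate 1 (-0.51), without KO db-cAMP replicate 1 (-0.66) and without KO db-cAMP replicate 2 (-0.61), with adjusted p from 0.0615 to 0.152. Gata3, the Th2 factor, and Foxp3, the regulatory T cell factor, were not called at 0.08 ± 0.14 and 0.36 ± 0.24.

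**Figure D4:**
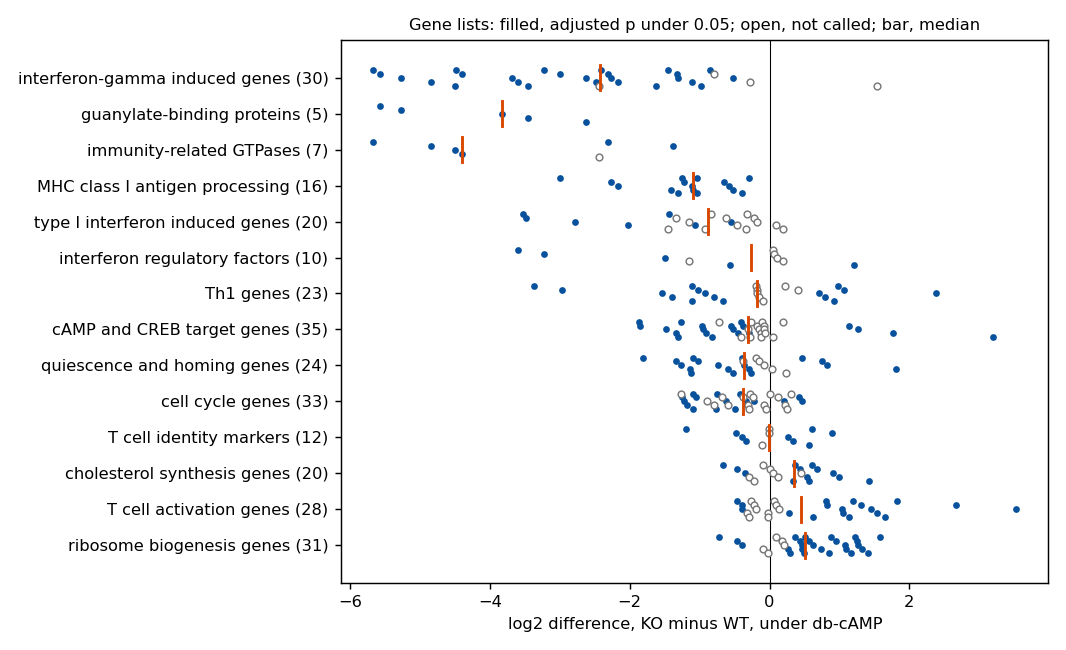
Each point is a tested gene of a list, at its KO minus WT log2 difference under db-cAMP; filled points passed the adjusted p, open ones did not, and the vertical bar is the list median. Medians run from -4.40 for the immunity-related GTPases to 0.50 for ribosome biogenesis genes.

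The genotype difference was also measured without db-cAMP, on arrays that enter the comparison above through the shared spread and the choice of probe sets, but not through the differences themselves. Under vehicle 1311 genes were called (10.8%), 612 higher (5.06%) and 699 lower (5.78%) in KO cells. Of the 1603 genes lower under db-cAMP 449 were also lower under vehicle, which is 28% of the first list and 64.2% of the second. Of the 1926 higher ones 383 were also higher under vehicle, 19.9% and 62.6%. A further 36 and 47 genes were called in the opposite direction under vehicle. The vehicle count was 815, 806, 617 and 775 when WT replicate 1 or 2 or KO replicate 1 or 2 of the vehicle arrays was left out, and 251 without the intensity trend.

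The test of the difference itself, db-cAMP minus vehicle, called 1425 genes (11.8%), 615 lower (5.09%) and 810 higher (6.7%). It was 891 and 895 without KO db-cAMP replicate 1 or 2, and 261 without the intensity trend. Of the genes lower under db-cAMP 521 (32.5%) passed it in the same direction, and of the higher ones 722 (37.5%). In the interferon-γ induced list 24 of 30 genes were already lower under vehicle, with a median of -1.87, and 17 were lower by a larger step under db-cAMP. Igtp gave 12310 and 13170 on the WT arrays and 1811 and 1550 on the KO arrays under vehicle, a difference of -2.92, and the step to db-cAMP was -1.92 (adjusted p = 1.24e-05). Gbp6 and Irgm1 had steps of -1.66 and -1.56. Tbx21 differed by -3.22 without db-cAMP and -3.37 ± 0.16 with it, and its step of -0.15 did not pass the test (adjusted p = 0.746). The step of Nlrc5 was -0.09 (adjusted p = 0.818) and that of Tnfsf8 0.17 (adjusted p = 0.645).

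In other genes the genotype difference appeared or turned with db-cAMP. Ramp3 was higher in KO cells under vehicle, with 249 and 180.4 on the WT arrays and 351 and 457 on the KO arrays (0.90, adjusted p = 0.00111), and lower under db-cAMP, a step of -2.77 (adjusted p = 3.96e-06). Cxcr4 turned the same way, from 0.45 to -1.33 ± 0.12. Jak2 moved from 0.24 (adjusted p = 0.076) to -1.01 ± 0.08, and Ifngr2 from 0.54 to -0.75 ± 0.15. Crem, Klf4 and Osm were not called under vehicle, at -0.39, -0.21 and -0.22, and their steps were -1.46, -1.60 and -1.95.

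Among genes higher in KO cells, Hivep3 gave 11920 and 12280 on the WT arrays and 16910 and 13370 on the KO arrays under vehicle, where it was not called (0.31, adjusted p = 0.0651), and its step was 3.22 (adjusted p = 9.3e-08). Il2 stepped by 2.15, Egr2 by 1.69, Myc by 1.46 and Polr1b by 1.38. Of the ribosome biogenesis list 20 of 31 genes had a positive step in limma and 0 a negative one (1 at an unadjusted p under 0.05), and under vehicle 8 were lower and 1 was higher in KO cells. Db-cAMP minus vehicle called 4233 genes in WT cells (35%), 1984 higher (16.4%) and 2249 lower (18.6%), and 1013 in KO cells (8.38%), 568 higher (4.7%) and 445 lower (3.68%). In WT cells this difference was -3.59 for Il2 and -4.35 for Hivep3, and in KO cells -1.45 and -1.14; these share arrays with the values above. The cell cycle list was lower by the same count under vehicle, 13 of 33, and had 1 negative and 3 positive steps.

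**Figure D5:**
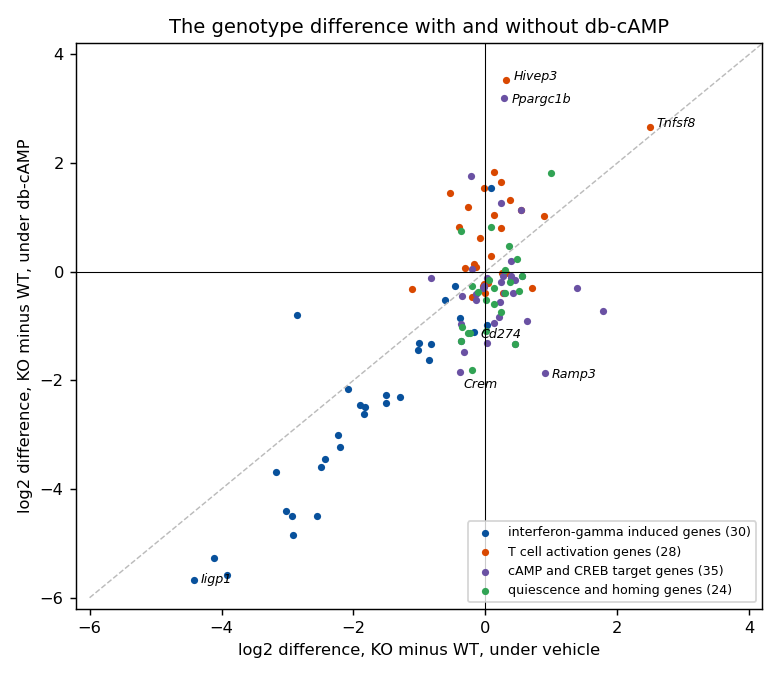
KO minus WT log2 difference under vehicle (horizontal) against db-cAMP (vertical) for the genes of 4 lists, with the dashed line marking equal differences. Most interferon-γ induced genes lie below the line, Hivep3 and Ppargc1b lie far above it, and Tnfsf8 lies close to it.

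The largest gains held many dim genes. In 8 of the 15 largest rises both WT arrays under db-cAMP were below their array's median signal, and in 5 of the 15 largest falls both KO arrays were. The bright exceptions among the rises were Erdr1, Hivep3, Tnfsf8, Nol8 and 1110032F04Rik. Erdr1 gave 119 and 188 on the WT arrays and 5234 and 5920 on the KO arrays, the widest gain of all (5.17 ± 0.35, adjusted p = 1.94e-07). Its difference under vehicle was 5.67, and its step was not called (adjusted p = 0.597). The difference of Erdr1 was 3.16 with the mean of its probe sets. Nol8, a nucleolar protein, gave 392 and 359 on the WT arrays and 2347 and 2266 on the KO arrays (2.60 ± 0.11, adjusted p = 2.6e-09). The difference of Nol8 was 1.69 with the mean of its probe sets. The unnamed transcript 1110032F04Rik gave 770.1 and 849 on the WT arrays and 4499 and 4220 on the KO arrays (2.42 ± 0.09, adjusted p = 7.96e-10). The difference of 1110032F04Rik was 1.01 with the mean of its probe sets.

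Of the dim genes, Farp1, a guanine nucleotide exchange factor, gave 38.5 and 5.09 on the WT arrays and 166 and 155 on the KO arrays (2.94 ± 0.57, adjusted p = 0.00144). The call on Farp1 was lost with the mean of its probe sets (1.54), with adjusted p = 0.0595. Its value was 1.91 without WT db-cAMP replicate 2. Zbed5 gave 64.9 and 20.2 on the WT arrays and 294 and 281 on the KO arrays (2.78 ± 0.37, adjusted p = 8.34e-05). Among the falls, Sardh, the mitochondrial sarcosine dehydrogenase, gave 126 and 109 on the WT arrays and 4.02 and 2.99 on the KO arrays (-3.78 ± 0.67, adjusted p = 0.000759), and Tmem35a gave 252 and 239 on the WT arrays and 27.2 and 4.52 on the KO arrays (-3.80 ± 0.67, adjusted p = 0.000718). The difference of Sardh was -2.50 with an offset of the 25th percentile. Sardh had one of the largest negative steps from vehicle to db-cAMP (-4.09, adjusted p = 0.0126), where its vehicle difference was 0.31.

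The labelled cell type was checked against its markers. Cd4 gave 389.9 and 439 on the WT arrays and 363 and 408 on the KO arrays and was not called (-0.10 ± 0.22, adjusted p = 0.782). Cd3e gave 2197 and 2330 on the WT arrays and 2727 and 2733 on the KO arrays (0.27 ± 0.09, adjusted p = 0.0373). The call on Cd3e was lost under 8 of 18 alternatives, among them without WT db-cAMP replicate 1 (0.23), without WT db-cAMP replicate 2 (0.31), without KO db-cAMP replicate 1 (0.27) and without KO db-cAMP replicate 2 (0.27), with adjusted p from 0.0525 to 0.246. Within the 12 identity markers 5 were higher in KO cells (Cd3e, Cd28, Cd5, Cd6 and Zap70) and 4 lower (Cd247, Cd3d, Cd2 and Lat), so T cell transcripts were present in all arrays while single receptor components differed. The call on Cd28 was lost without the intensity trend (0.34) and with the mean of its probe sets (0.09), with adjusted p from 0.0559 to 0.349. Its value was 0.57 after quantile normalization and 0.22 at an equal 75th percentile. The call on Cd3d was lost after quantile normalization (-0.08), with adjusted p = 0.354. The call on Lat was lost after quantile normalization (-0.07), without the intensity trend (-0.34) and without KO db-cAMP replicate 2 (-0.28), with adjusted p from 0.0607 to 0.412. After quantile normalization 2 markers were lower and 5 higher. Cd247, the zeta chain of the T cell receptor complex, gave 9975 and 9954 on the WT arrays and 4369 and 4294 on the KO arrays (-1.20 ± 0.07, adjusted p = 4.37e-08), and the kinase Zap70 gave 3406 and 3070 on the WT arrays and 6067 and 5974 on the KO arrays (0.90 ± 0.08, adjusted p = 3.42e-06). The WT arrays were high for Cd247 and low for Zap70.

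Markers of other cell types were measured beside these. Summed over their lists, CD8 markers gave 367 and 433 on the WT arrays and 276 and 269.8 on the KO arrays, and Cd8b1 differed by -0.89 ± 0.21 (adjusted p = 0.00514). B cell markers summed to 6244 and 5745 in WT and 8892 and 7875 in KO, of which Ighm made up most, with 5278 and 4563 on the WT arrays and 8188 and 7156 on the KO arrays (0.64 ± 0.10). The call on Ighm was lost with the mean of its probe sets (-0.42), with adjusted p = 0.425. The other 2 called B cell markers, Cd79b and Ms4a1, were lower, at -1.28 ± 0.40 and -0.76 ± 0.25. The call on Cd79b was lost under 6 of 18 alternatives, among them without WT db-cAMP replicate 1 (-1.37), without WT db-cAMP replicate 2 (-1.19) and without KO db-cAMP replicate 2 (-0.65), with adjusted p from 0.0513 to 0.304. The call on Ms4a1 was lost under 6 of 18 alternatives, among them without WT db-cAMP replicate 2 (-0.49), without KO db-cAMP replicate 1 (-0.83) and without KO db-cAMP replicate 2 (-0.70), with adjusted p from 0.0516 to 0.249. Dendritic cell markers summed to 2831 and 3383 in WT and 1903 and 2275 in KO, and the 3 called genes, all lower, are MHC class II genes that IFN-γ is known to induce (Cd74, H2-Aa and H2-Ab1). The call on H2-Aa was lost without the intensity trend (-0.49), without WT db-cAMP replicate 2 (-0.40) and without KO db-cAMP replicate 1 (-0.29), with adjusted p from 0.0966 to 0.194. Its value was -0.85 with the mean of its probe sets. The call on H2-Ab1 was lost without the intensity trend (-0.67), without WT db-cAMP replicate 2 (-0.57) and without KO db-cAMP replicate 1 (-0.47), with adjusted p from 0.129 to 0.229. NK cell markers summed to 1053 and 1051 against 1073 and 1049, with 0 of 3 called by limma and 1 at an unadjusted p under 0.05, and macrophage and neutrophil markers to 822 and 836 against 670 and 729, with Elane alone called. The call on Elane was lost under 10 of 18 alternatives, among them without WT vehicle replicate 2 (-1.37), without WT db-cAMP replicate 2 (-0.96), without KO vehicle replicate 1 (-1.37), without KO vehicle replicate 2 (-1.37), without KO db-cAMP replicate 1 (-1.40) and without KO db-cAMP replicate 2 (-1.33), with adjusted p from 0.05 to 0.29. Among the 10 erythroid and platelet markers 1 was tested and was not called. These signals come from cells in bulk, in which fewer cells of a type and less RNA per cell cannot be told apart, and the part of these markers in the gene results was not tested.

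The chromosomal neighbours of Ifngr1 were also described, by gene order in RefSeq. Under db-cAMP, of the 5 tested genes on each side of Ifngr1, 4 were lower in KO cells (Perp, Tnfaip3, Map3k5 and Map7). In limma 0 were higher by adjusted or unadjusted p under 0.05. Over all genes tested 13.3% were lower. The call on Map3k5 was lost with the mean of its probe sets (-0.16), with adjusted p = 0.431. Tnfaip3, an inhibitor of NF-κB and the nearest tested gene on its side, gave 6112 and 5851 on the WT arrays and 2440 and 2659 on the KO arrays (-1.23 ± 0.11, adjusted p = 2.03e-06), and its difference under vehicle was 0.33 (adjusted p = 0.0656). Map7 was lower under both treatments, at -1.78 ± 0.23 and -1.11. Under vehicle Perp and Map3k5 were not called, at -0.28 and 0.22. The neighbours Heca and Ccdc28a were higher in KO cells there, at 0.63 and 0.71 (adjusted p = 0.00281 and 0.0393 in limma). The 4 genes lower under db-cAMP were chosen after their values were seen.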

How the data were processed

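Biotin-labelled cRNA was hybridised to 8 Affymetrix arrays, per the labels' protocols. The authors deposited 1 linear intensity per probe set and array, made with MAS5, per the submitters' processing notes, which give no settings. Each array's middle 96% averaged close to 499.8, so the intensity values were scaled before deposit and total mRNA per cell is not measured. Genes came from probe sets with 1 symbol, using the probe set of highest mean over the 8 arrays. Values became log2(signal + 5.48), the offset being the 10th percentile, which understates folds of dim genes. Genes above the array median on at least 2 arrays were tested (12091 of 18193).

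Differences were fitted with limma 3.58.1 (lmFit, eBayes with intensity trend) in R 4.3.3, with 1 term per group over all 8 arrays, leaving 4 residual degrees of freedom. The fit was also run on simulated independent normal values with its own variances and no array effects. That run meets the model's assumptions by design, so it does not check the calls in these data. An exact permutation test of 2 against 2 arrays cannot go below p = 0.333. Members and gene lists were chosen with earlier results of these data known. Genes were named by rule: the 15 largest rises and falls, up to 4 called members of a list, a preset group and the 5 largest interactions each way; the text gives part of them, and others were chosen after their values were seen. Promoters came from RefSeq (GRCm38.p6). Precision is limited by the number of arrays. Some genes are not analysed here.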

Additional observations from a re-analysis of the deposited data

Results flagged for a closer look

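The genotype difference under db-cAMP differed from that under vehicle at limma's adjusted p under 0.05 in 107 of the 178 genes named in the report. Over all 12091 genes tested 1425 (11.8%) passed, and the named genes were chosen partly by their values, so these shares cannot be compared. Without the intensity trend 261 of all genes passed. Single genes were recomputed under other settings for the db-cAMP difference only, so the values below have no such check. Some belong to genes whose db-cAMP call was lost under a setting, such as Pde4d, Ighm, Rel and Calr. Each value is the log2 difference under db-cAMP minus that under vehicle, so a negative value means that KO cells stood lower, relative to WT cells, with db-cAMP. Among interferon-γ induced genes it was -1.93 for Cxcl10, -1.92 for Igtp, -1.66 for Gbp6, -1.56 for Irgm1, -1.37 for Irgm2, -1.25 for Iigp1, -1.16 for Gbp2, -1.11 for Irf1, -1.03 for Gbp7, -1.03 for Ifi47, -1.02 for Irf8, -0.94 for Cd274, -0.78 for Gbp3, -0.76 for Psmb9, -0.76 for Dtx3l and -0.76 for Tap1. In the group of receptor and signalling genes the value was -1.62 for Ifngr1, -1.29 for Ifngr2, -1.24 for Jak2, -1.20 for Socs3 and -0.98 for Stat3. The guanylate-binding proteins gave -0.97 for Gbp8. Among antigen-processing genes it was -0.54 for Tap2, -0.47 for Tapbp and -0.32 for Calr. In the group of type I interferon targets the value was -2.95 for Ifit1, -1.74 for Usp18 and -1.06 for Zbp1. The cAMP targets gave -2.77 for Ramp3, -1.78 for Cxcr4, -1.46 for Crem, -1.33 for Vps37b, -1.15 for Rgs2, -1.07 for Pde4d, 0.59 for Nr4a1, 1.04 for Id3 and 2.91 for Ppargc1b.

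Among quiescence and homing genes it was -1.60 for Klf4, -1.09 for Cdkn1b, -0.97 for S1pr1, -0.90 for Ccr7, -0.88 for Klf6, -0.68 for Klf2, 0.74 for Bach2, 0.81 for Foxp1 and 1.13 for Slfn2. In the group of activation genes the value was -0.66 for Rel, -0.39 for Tnfrsf9, 0.57 for Il2ra, 0.70 for Cd69, 0.91 for Nfatc1, 0.94 for Egr1, 1.22 for Tfrc, 1.46 for Myc, 1.56 for Slc7a5, 1.69 for Egr2, 1.99 for Egr3 and 3.22 for Hivep3. The Th1 genes gave -1.84 for Txk, -1.32 for Eomes, -1.25 for Fasl, -0.78 for Gzmb, -0.77 for Stat4, 0.71 for Xcl1, 0.80 for Ccl3, 0.94 for Ccl4, 1.10 for Lta, 1.42 for Il12rb1 and 2.15 for Il2. Among ribosome biogenesis genes it was 1.20 for Rrs1, 1.30 for Grwd1, 1.38 for Polr1b and 1.55 for Gnl3. In the group of metabolic genes the value was -0.66 for Hif1a, 0.77 for Sqle, 0.88 for Lss, 0.92 for Pdk1 and 1.46 for Hk2. The T cell identity markers gave -0.44 for Cd247, 0.35 for Cd6, 0.44 for Cd5, 0.50 for Cd3e and 0.77 for Zap70. Among other named genes it was -4.09 for Sardh, -1.95 for Osm, -1.56 for Tnfaip3, -0.99 for Edem1, -0.93 for Perp, -0.80 for Map3k5, -0.73 for Ddit4, -0.72 for Cklf, -0.70 for Gata3, -0.62 for Xbp1, -0.45 for Mcl1, 0.49 for Mcm3, 0.50 for Il6st, 0.52 for Ccnd2, 0.59 for Tgfbr1, 0.67 for Ccl1, 0.72 for Bcl2l11, 0.89 for Ighm, 0.91 for Pim3, 1.41 for Bid, 1.46 for Nol8, 1.92 for 1110032F04Rik, 2.54 for Zbed5 and 2.85 for Farp1.

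A signal also appeared in probe sets that the comparison does not name. Of 651 tested probe sets with several gene symbols 271 were called (41.6%), and 216 of these were lower in KO cells and 55 higher. Among probe sets with 1 symbol 25.9% of 21956 tested were called, 2343 lower and 3344 higher, and among those with no symbol 12.1% of 3920, 181 lower and 292 higher. Among control probe sets the mean poly-A spike signal under db-cAMP was 2.83 times as high on the KO as on the WT arrays.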

How the results depend on the processing

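Each gene count and list count was recomputed under 18 alternative settings, and the gene counts also probe set by probe set. Testing every probe set on its own gave 6431 calls under db-cAMP (3691 higher, 2740 lower) and 2733 under vehicle (1495 higher, 1238 lower), where more features were tested. With the mean of a gene's probe sets 989 genes were lower under db-cAMP, 794 were called under vehicle (400 higher, 394 lower) and 709 in the test of the difference (404 higher, 305 lower). Without the intensity trend there were 251 calls under vehicle (150 higher, 101 lower) and 261 of the difference (145 higher, 116 lower). An equal 75th percentile gave 402 higher and 1173 lower genes under vehicle. Glycolysis genes called lower numbered 6 after quantile normalization and 6 without the trend. The cause of these moves was not tested. Leaving out each array in turn gave 2438 to 3580 calls under db-cAMP (1286 to 1938 higher, 1152 to 1642 lower), 617 to 1391 under vehicle (297 to 658 higher, 320 to 733 lower) and 891 to 1336 of the difference (493 to 822 higher, 398 to 557 lower). Over the same omissions glycolysis genes called lower ran from 6 to 10 and genes of the Th2, Th17 and regulatory list called higher from 3 to 6.

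Among named genes 7 changed sign: with the mean of a gene's probe sets Birc3 was 0.082, Cdk2 -0.081, Ighm -0.416, Pde4d 0.073 and Hsp90b1 0.377, and after quantile normalization Fbl was 0.007 and Ncl 0.061. Of these only Hsp90b1 was called in the opposite direction (adjusted p = 0.00514). The replicate numbers of the titles did not pair the arrays, since deviations of same-numbered arrays correlated between -0.02 and 0.02, and with the replicate block 3485 genes were called. Of 167 named genes called, 114 kept their direction and call under each of the 18 settings in which they were tested. With 2 arrays a group the spread is estimated from few samples.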
